A study of Mus musculus with 30 samples.

Results

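The genes described here encode the chains of collagen, the triple-helical proteins that form most of the extracellular matrix. They are the 42 genes whose probe sets carry a single symbol of the form Col, number, a, number in the platform's gene table, of 18194 genes named in this way. Together they had 82 probe sets. One probe set was used for each gene, the one with the highest mean over the 30 arrays, and the other probe sets of the 27 genes that had more than 1 served as a check. The arrays were Affymetrix Mouse Genome 430 2.0 arrays of C2C12 cells, a mouse myoblast line that forms myotubes when growth medium is replaced by differentiation medium and takes an osteoblast-like course when bone morphogenetic protein 2 (BMP2) is added. Both lines compared here were made by lentiviral transduction and sorted for the green fluorescent marker copGFP. C2C12-pMirn378 carries an overexpression construct for the miR-378 precursor (Mirn378), and C2C12-pMirn0 carries the parent vector. Each line was sampled on d0 and after 3 and 6 days of differentiation with 300 ng/ml BMP2 or without it (untreated), which gives 10 groups of 3 replicate arrays. There was 1 stable line for each construct, so that line and construct cannot be told apart, and mature miR-378 is not measured on these arrays. Whole cultures were measured, in which more RNA per cell and more cells of a type cannot be told apart.

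Values are intensities on the linear scale, and the average expression value (AEV) of a group is the mean of its 3 arrays. The median of all intensities was 76.5, and the medians of single arrays lay between 68.0 and 82.7. Of the 42 genes, 28 had an AEV at or above 76.5 in 1 or more of the 10 groups. The other 14 stayed below it in every group, with AEVs between 3.18 and 75.4: *Col4a3*, *Col4a4*, *Col4a6*, *Col6a4*, *Col6a5*, *Col9a2*, *Col9a3*, *Col10a1*, *Col11a2*, *Col13a1*, *Col15a1*, *Col17a1*, *Col20a1* and *Col26a1*. At that level the arrays of a group differed from each other much more: over all probe sets the median SD of replicates on the log2 scale was 0.59 below the median level and 0.12 at or above it. Genes are compared with themselves between groups, not with each other, since the brightness of a probe set also depends on its sequence.

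Collagen chains assemble in threes in the endoplasmic reticulum and are classed by the structure they build. Fibrillar collagens form the striated fibrils of bone, tendon, skin and cartilage. Type IV collagen forms the sheet of the basement membrane that wraps each muscle fiber, type VI collagen forms beaded filaments just outside it, and fibril-associated collagens sit on the surface of fibrils made by others. The array held 11 fibrillar genes, 6 of basement membrane type IV, 5 of beaded type VI, 9 fibril-associated genes, 3 of network types VIII and X, 4 transmembrane genes, 2 multiplexins, which are basement membrane proteoglycans, the anchoring fibril gene *Col7a1* and *Col26a1*. The muscle markers *Myog*, *Ckm*, *Des*, *Acta1*, *Myod1* and *Myf5* were above the median in all 10 groups, and their summed intensity per array was 11992 to 24552 on d3 and d6 with BMP2, against 54714 to 74011 without it. The osteoblast markers *Alpl* and *Sp7* summed with *Ibsp* to 2699 to 7549 with BMP2, against 160 to 225 without it, and *Ibsp* stayed below the median in every group. Of 4 adipocyte markers, *Adipoq* was below the median throughout, and the sum of all 4 was 2150 to 4849 with BMP2, against 236 to 371 without it. Planned markers left out for want of a single-symbol probe set were *Runx2*, *Bglap* and *Spp1* for osteoblasts and *Plin1* and *Cfd* for adipocytes. Of 3 tendon markers, *Tnmd* and *Mkx* were below the median, and the sum with *Scx* was 82.7 to 164 with BMP2, against 532 to 1001 without it. Endothelial markers were at or above the median for 0 to 1 of 4 genes in each group, and blood markers for 0 to 1 of 2. The part of these cell types in the collagen results was not tested.

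With BMP2, collagen genes of fibrils and of type VI were among those that rose, and genes of type IV among those that fell. A gene was called higher or lower when its adjusted p (limma, Benjamini-Hochberg over all 45101 probe sets) was under 0.005 and its log2 ratio was beyond 0.6 in size. In C2C12-pMirn378 cells, 14 of the 42 genes were higher with BMP2 on d3 and 5 were lower, while 13.3% of all genes were higher and 9.84% lower. On d6, 11 were higher and 6 lower (10.8% and 11.1% of all genes). In C2C12-pMirn0 cells, 14 were higher and 3 lower on d3 (11.2% and 8.48% of all genes), and 11 were higher and 5 lower on d6 (11% and 10.6%). The median log2 ratio of the 42 genes was 0.27, 0.18, 0.52 and 0.49 in these 4 comparisons, and that of all genes was −0.031, −0.030, 0.055 and 0.080. Of the 11 fibrillar genes, 7 were higher and 1 lower on d3 in C2C12-pMirn378 cells, 6 were higher on d6, and in C2C12-pMirn0 cells 6 were higher on d3 and 3 on d6. Of the 6 type IV genes none was higher in any of the 4 comparisons, and 3, 3, 3 and 2 were lower in the same order. Of the 5 type VI genes, 3 were higher in each. Higher in all 4 comparisons were *Col2a1*, *Col5a1* and *Col24a1* of the fibrillar genes, *Col6a1*, *Col6a2* and *Col6a3* of type VI, *Col8a2* and *Col12a1*. Lower in all 4 were *Col4a1* and *Col4a2*. *Col18a1* and *Col19a1* were higher in 1 line and lower in the other. Of the dim genes, *Col17a1* alone was called, higher on d3 in both lines, and it was not called when values under 50 were set to 50.

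**Figure D1:**
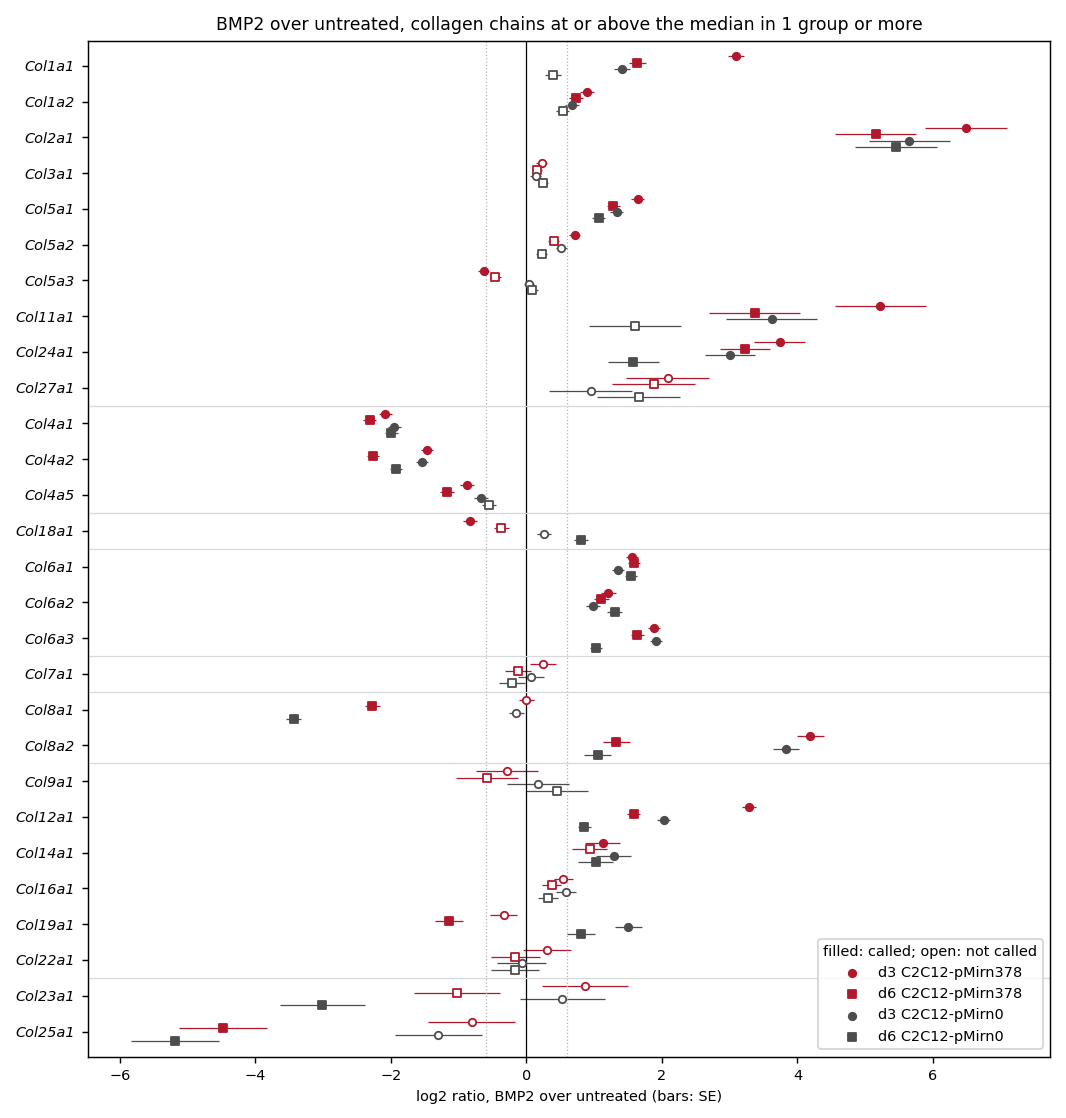
Log2 ratio of BMP2 over untreated cultures for the 28 collagen genes with an AEV at or above the median of all intensities in 1 group or more, ordered by class (gray lines part the classes), with C2C12-pMirn378 in red and C2C12-pMirn0 in gray, circles for d3 and squares for d6. Bars are standard errors, filled symbols are called, and dotted lines mark 0.6 in either direction: the type VI genes lie to the right and the type IV genes to the left in both lines and on both days.

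*Col1a1*, which encodes the main chain of type I collagen, the collagen of bone, responded more to BMP2 in C2C12-pMirn378 cells on both days. On d3 its intensities were 4347, 4697 and 5115 in C2C12-pMirn378 cells with BMP2 and 606, 494 and 558 without it. In C2C12-pMirn0 cells they were 2729, 2738 and 2781 with BMP2 and 1011, 1037 and 1049 without it. In both lines all BMP2 arrays lay above all untreated arrays, and the lines themselves stood apart, with C2C12-pMirn378 above C2C12-pMirn0 under BMP2 and below it without. The d3 log2 ratio of BMP2 over untreated was 3.10 ± 0.12 (SE) in C2C12-pMirn378 cells (8.55-fold, adjusted p = 2.22e-15) and 1.41 ± 0.12 in C2C12-pMirn0 cells (2.66-fold, adjusted p = 2.34e-09). On d6 *Col1a1* was 4037 ± 435 with BMP2 and 1299 ± 148 without it in C2C12-pMirn378 cells, and 2101 ± 37.5 with BMP2 and 1609 ± 263 without it in C2C12-pMirn0 cells (SD, n = 3). The d6 ratio was called in C2C12-pMirn378 cells (1.64 ± 0.12, adjusted p = 1.73e-10) and was 0.40, below the minimum of 0.6, in C2C12-pMirn0 cells. The dimmer second probe set of *Col1a1* gave d3 ratios of 3.15 and 1.52 in the same order of lines.

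*Col1a2*, for the partner chain of type I collagen, and *Col3a1*, for type III collagen, which mixes into type I fibrils of soft tissue, were bright on every array. The brightest probe set of *Col1a2* read 23582 ± 1981 in C2C12-pMirn378 cells with BMP2 on d3 and 12683 ± 735 without it (SD, n = 3), a log2 ratio of 0.89 ± 0.10 (SE). In C2C12-pMirn0 cells it read 22580 ± 2217 with BMP2 and 14196 ± 1351 without it, a log2 ratio of 0.67 ± 0.10, which fell under 0.6 when either C2C12-pMirn0 d3 untreated replicate 2 or d3 BMP2 replicate 1 was left out (0.59 at the lowest). Its second probe set, with a lower intensity, gave larger d3 ratios of 2.41 and 1.73 in C2C12-pMirn378 and C2C12-pMirn0 cells, and another gave 2.86 and 1.80. *Col3a1* behaved in the same way: the brightest probe set was not called in any BMP2 comparison, with ratios of 0.14 to 0.25, whereas the second gave 1.22 and 0.73 on d3. The bright and dim probe sets of these genes thus gave the same direction and different sizes. Among the 16 collagen genes with a second probe set at or above the median in some group, 48 BMP2 ratios went beyond 0.6 on the brightest probe set, 47 of them had the same sign on the second, with *Col23a1* on d3 in C2C12-pMirn378 cells as the exception, and 25 were larger there.

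*Col2a1*, for type II collagen, the main fibril of cartilage, read 682, 587 and 598 in C2C12-pMirn378 cells with BMP2 on d3, against 13.5, 3.74 and 6.61 without it. In C2C12-pMirn0 cells it read 375, 254 and 367 with BMP2 and 14.7, 6.00 and 3.13 without it. No array without BMP2, of d0, d3 or d6, exceeded 16.7, and none with BMP2 was below 254. The log2 ratios of 5.15 to 6.49 in the 4 comparisons rest on these untreated values, and with values under 50 set to 50 they were 2.71 to 3.63, with every call kept. *Col2a1* had 1 probe set and no check by a second. *Col11a1*, for a type XI chain found in the core of type II fibrils, read 628 ± 36.4 with BMP2 and 17.7 ± 6.68 without it on d3 in C2C12-pMirn378 cells, and 1199 ± 82.3 and 97.5 ± 4.54 in C2C12-pMirn0 cells (SD, n = 3). It was called higher in 3 of the 4 comparisons. The exception was d6 in C2C12-pMirn0 cells, where it was 796 ± 41.1 with BMP2 and 263 ± 33.0 without it, a log2 ratio of 1.60 ± 0.67 (SE). The arrays of those groups did not overlap. Without a floor its adjusted p was 0.0723. With values under 50 set to 50 the ratio was the same and was called (1.60, adjusted p = 1.92e-08). That setting changes none of these arrays, but it removes the spread of groups below 50, such as the d0 arrays of both lines (0.898 to 28.9). The spread shared by all groups is then smaller, so this call is no separate evidence for the difference. Of 7 other chondrocyte markers, *Acan*, *Comp*, *Hapln1*, *Matn1*, *Matn3* and *Snorc* were below the median in all 10 groups, and *Sox9* was above it. It had AEVs of 899 and 688 in C2C12-pMirn378 cells with BMP2 on d3 and d6, against 432 and 482 without it, and was highest on d0, at 1465. The sum of the 7 markers, most of it *Sox9*, was 759 to 1122 per array with BMP2 on d3 and d6 in both lines, against 574 to 693 without it. It was highest on d0, at 1288 to 1380 in C2C12-pMirn0 cells and 1512 to 1715 in C2C12-pMirn378 cells. The part of these markers in the *Col2a1* values was not tested.

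*Col24a1*, for a minor fibrillar collagen of bone, was also higher with BMP2 in all 4 comparisons. In C2C12-pMirn0 cells with BMP2, however, its AEV fell from 202 on d3 to 80.8 on d6. Its intensities were 276, 288 and 269 with BMP2 and 23, 20.7 and 19.1 without it on d3 in C2C12-pMirn378 cells, where the groups were far apart. On d6 in C2C12-pMirn0 cells they were 99.9, 77.0 and 65.6 with BMP2 and 39.5, 19.6 and 24.5 without it, which is 1.58 ± 0.37 on the log2 scale (SE, adjusted p = 0.00169). The call was lost without 1 of 4 of the arrays in turn (C2C12-pMirn0 d6 untreated replicate 2 or 3, d6 BMP2 replicate 1 or 2). *Col27a1*, a fibrillar gene of cartilage, had log2 ratios between 0.95 and 2.09 in the 4 comparisons without a call, its untreated arrays on d3 in C2C12-pMirn378 cells reaching from 19.3 to 118.

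Type V collagen starts and limits the growth of type I fibrils. *Col5a1*, its main chain, was higher in all 4 comparisons, with log2 ratios of 1.64 and 1.29 on d3 and d6 in C2C12-pMirn378 cells and 1.33 and 1.07 in C2C12-pMirn0 cells (all SE 0.09). Its AEV on d3 was 14008 ± 1122 with BMP2 and 4483 ± 165 without it in C2C12-pMirn378 cells (SD, n = 3). *Col5a2*, the second chain, moved less and was called only on d3 in C2C12-pMirn378 cells (0.71 ± 0.08). The remaining chain, *Col5a3*, went the other way in that comparison, at 667, 621 and 663 with BMP2 against 1092, 953 and 981 without it, a log2 ratio of −0.63 ± 0.08 whose size was under 0.6 when C2C12-pMirn378 d3 untreated replicate 1 or d3 BMP2 replicate 2 was left out. Its second probe set was dim in every group and gave 0.73 with an adjusted p of 0.63.

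The promoters of *Col5a1* and *Col11a1*, which both rose with BMP2 on d3 in both lines, are shown because RefSeq's annotation (build GRCm38.p6) places their starts in GC-rich sequence, 76.4% and 62.4% G or C over the 250 bases upstream. Capitals mark, on either strand, the GC box GGGCGG (or CCGCCC), the CCAAT box CCAAT (or ATTGG), the TATA box TATAAA (or TTTATA) and GGCGCC, a GC-rich element bound by Smad proteins. *Col5a1* lies on the plus strand with this window at chr2:27886175-27886424, and *Col11a1* on the plus strand at chr3:114030290-114030539.
Col5a1: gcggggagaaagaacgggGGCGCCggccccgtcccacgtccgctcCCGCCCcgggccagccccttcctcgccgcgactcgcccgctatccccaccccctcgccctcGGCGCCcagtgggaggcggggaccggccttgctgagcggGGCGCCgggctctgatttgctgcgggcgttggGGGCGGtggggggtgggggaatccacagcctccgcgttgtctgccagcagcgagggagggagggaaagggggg
Col11a1: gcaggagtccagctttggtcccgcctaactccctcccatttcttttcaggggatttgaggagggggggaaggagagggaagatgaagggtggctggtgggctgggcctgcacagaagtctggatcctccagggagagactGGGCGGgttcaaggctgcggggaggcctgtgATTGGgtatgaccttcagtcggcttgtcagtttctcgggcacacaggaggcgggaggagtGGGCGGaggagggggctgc
The *Col5a1* window held 3 copies of GGCGCC and 2 GC boxes, and that of *Col11a1* 2 GC boxes and 1 CCAAT box. The RefSeq table gave 36 such windows for 33 of the 42 genes. A GC box was found in 21 of the 36 (58.3%), against 32.7% of all 32851 windows, and GGCGCC in 4 (11.1%), against 9.59%. The genes with GGCGCC were *Col5a1*, *Col4a1*, *Col4a4* and *Col16a1*. Of these, *Col4a1* was lower with BMP2 in all 4 comparisons, *Col16a1* was not called in any and *Col4a4* was dim. A CCAAT box was found in 36.1% and a TATA box in 13.9%, against 33.8% and 12.4% of all windows. These matches describe letters and were not tested for binding, and no matches of different motifs overlapped in the 36 windows.

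**Figure D2:**
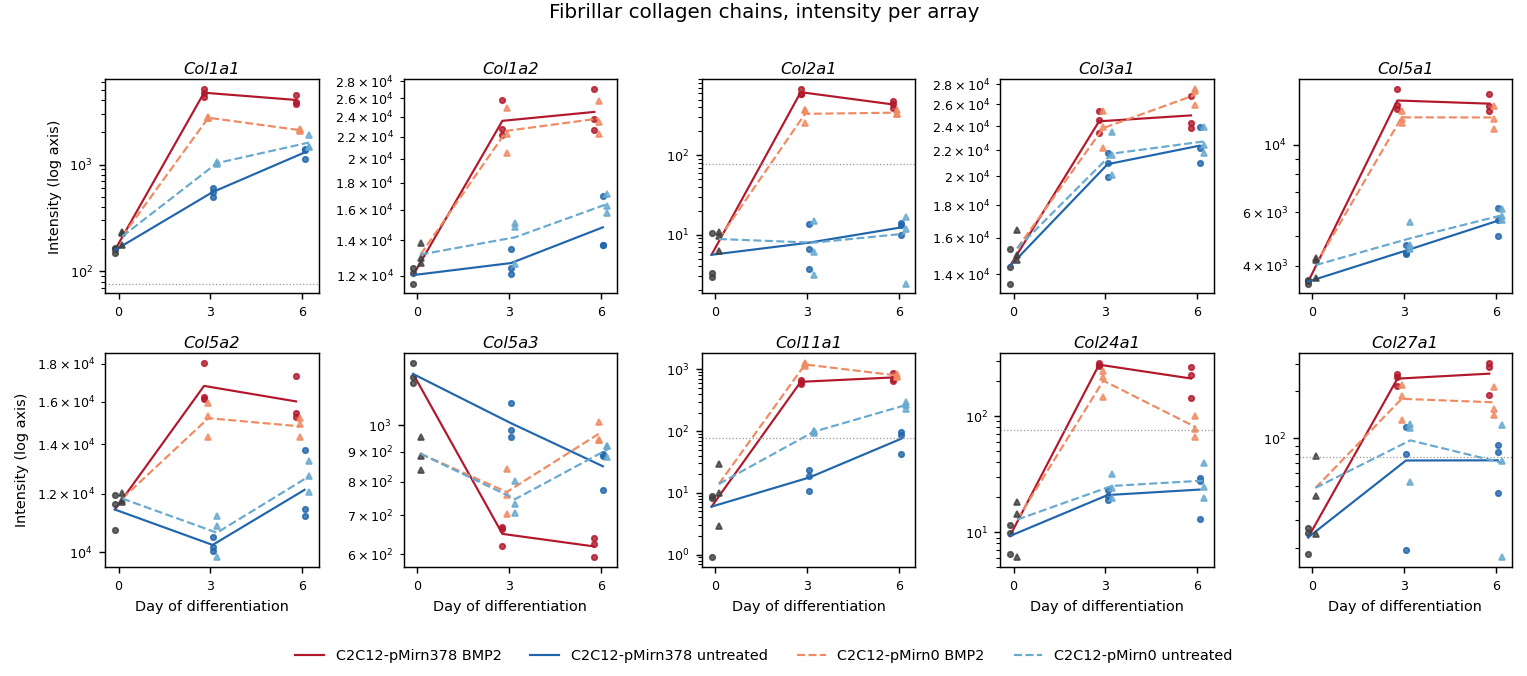
Intensity (log axis) of 10 fibrillar collagen genes on d0, d3 and d6 of differentiation, with points for single arrays, lines for the mean of 3 arrays, circles and full lines for C2C12-pMirn378, triangles and dashed lines for C2C12-pMirn0, and black points for the d0 arrays that both courses of a line share. The dotted line is the median of all intensities, 76.5, drawn where a gene comes near it: *Col2a1* lies below it on all arrays without BMP2 and above it on all arrays with BMP2.

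The basement membrane genes *Col4a1* and *Col4a2*, for the chains that make up most type IV collagen, fell with BMP2 in both lines and on both days. On d3, *Col4a1* read 891, 745 and 738 in C2C12-pMirn378 cells with BMP2 and 3544, 3216 and 3245 without it. In C2C12-pMirn0 cells it read 1157, 935 and 1077 with BMP2 and 4293, 3854 and 4069 without it. No BMP2 array came near an untreated one, and the log2 ratios were −2.08 ± 0.10 (SE, adjusted p = 4.40e-14) and −1.95 ± 0.10 (adjusted p = 1.69e-13). On d6 they were −2.31 and −1.99, which is 4.97-fold and 3.98-fold lower with BMP2. *Col4a2* gave −1.46 and −1.54 on d3 and −2.26 and −1.93 on d6 in C2C12-pMirn378 and C2C12-pMirn0 cells (all SE 0.09). The second probe set of *Col4a1* gave ratios between −1.30 and −2.14 in the 4 comparisons, all called.

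These genes share a start region. In the RefSeq annotation *Col4a1* runs on the minus strand from base 11312826 of chromosome 8 and *Col4a2* on the plus strand from base 11312805, so that their transcripts leave in opposite directions and share 22 bases, in capitals below on the plus strand at chr8:11312801-11312830.
Col4a1/Col4a2: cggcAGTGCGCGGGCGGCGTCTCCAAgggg
*Col4a5* and *Col4a6* are arranged in a like way on chromosome X, with 1343 bases between their starts. *Col4a6* was dim in every group. *Col4a5*, a chain of a more restricted type IV network, was called lower with BMP2 in both lines on d3 and in C2C12-pMirn378 cells on d6. On d3 it read 562, 679 and 661 with BMP2 and 1178, 1224 and 1097 without it in C2C12-pMirn378 cells, and 637, 704 and 716 with BMP2 and 1073, 1191 and 1003 without it in C2C12-pMirn0 cells. The log2 ratios were −0.88 ± 0.10 and −0.67 ± 0.10 (SE). In C2C12-pMirn0 cells the size was just under 0.6 without d3 untreated replicate 2 (−0.60), and the gene was then not called. On d6 they were −1.17 ± 0.10 and −0.55 ± 0.10. Unlike *Col4a1* and *Col4a2*, it was above its d0 level with BMP2 as well as without it: in C2C12-pMirn0 cells its AEVs were 366 on d0, 686 on d3 and 624 on d6 with BMP2.

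*Col18a1* encodes the multiplexin of basement membranes from which endostatin is cut. Its brightest probe set fell in C2C12-pMirn378 cells with BMP2 on d3, at 619, 484 and 425 against 990, 830 and 881 without it (log2 ratio −0.84 ± 0.11, SE). In C2C12-pMirn0 cells it was higher with BMP2 on d6, at 1338, 1321 and 1356 against 757, 758 and 774 without it (0.81 ± 0.11, adjusted p = 1.42e-06). The groups did not overlap in either comparison. The second probe set, which by its suffix _s_at can match more than 1 transcript, gave −0.071 and 0.21 in these comparisons and was called in neither.

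Type VI collagen, whose loss causes muscle disease in people, rose with BMP2 in all of its 3 chains that were above the median. *Col6a1* on d3 read 5429, 5215 and 4532 in C2C12-pMirn378 cells with BMP2 and 1773, 1697 and 1686 without it. In C2C12-pMirn0 cells it read 5940, 5355 and 5644 with BMP2 and 2226, 2140 and 2277 without it. The log2 ratios of *Col6a1* lay between 1.35 and 1.59 over the 4 comparisons, those of *Col6a2* between 0.98 and 1.30, and those of *Col6a3* between 1.03 and 1.91, with standard errors of 0.09 to 0.11. *Col6a3*, the longest chain, read 14406, 12529 and 12161 in C2C12-pMirn378 cells with BMP2 on d3 and 3771, 3271 and 3519 without it, a 3.70-fold difference. *Col6a4* and *Col6a5*, which can take the place of *Col6a3* in the trimer, were dim in all groups.

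*Col6a1* and *Col6a2* are neighbors on the minus strand of chromosome 10, with 102414 bases between their starts in the RefSeq annotation (GRCm38.p6). The 250 bases upstream of each are shown because both genes rose with BMP2 in both lines and were lower on d0 in C2C12-pMirn378 cells. The windows are chr10:76726045-76726294 for *Col6a1* and chr10:76623631-76623880 for the more upstream of the 2 annotated starts of *Col6a2*, both written on the minus strand with capitals as above.
Col6a1: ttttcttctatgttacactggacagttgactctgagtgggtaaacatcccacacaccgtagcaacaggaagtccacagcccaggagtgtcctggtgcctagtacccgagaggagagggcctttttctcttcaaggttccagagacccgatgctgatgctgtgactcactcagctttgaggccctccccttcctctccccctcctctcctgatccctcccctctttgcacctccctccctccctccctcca
Col6a2: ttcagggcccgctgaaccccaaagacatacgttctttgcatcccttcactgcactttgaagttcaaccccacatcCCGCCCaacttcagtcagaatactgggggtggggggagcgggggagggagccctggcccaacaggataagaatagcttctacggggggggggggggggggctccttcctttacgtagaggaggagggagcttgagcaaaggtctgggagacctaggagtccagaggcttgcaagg
Only the window of *Col6a2* held a match, 1 GC box.

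*Col7a1*, for the anchoring fibrils that tie basement membranes to the tissue beneath, was not called in any BMP2 comparison, with log2 ratios between −0.21 and 0.25.

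**Figure D3:**
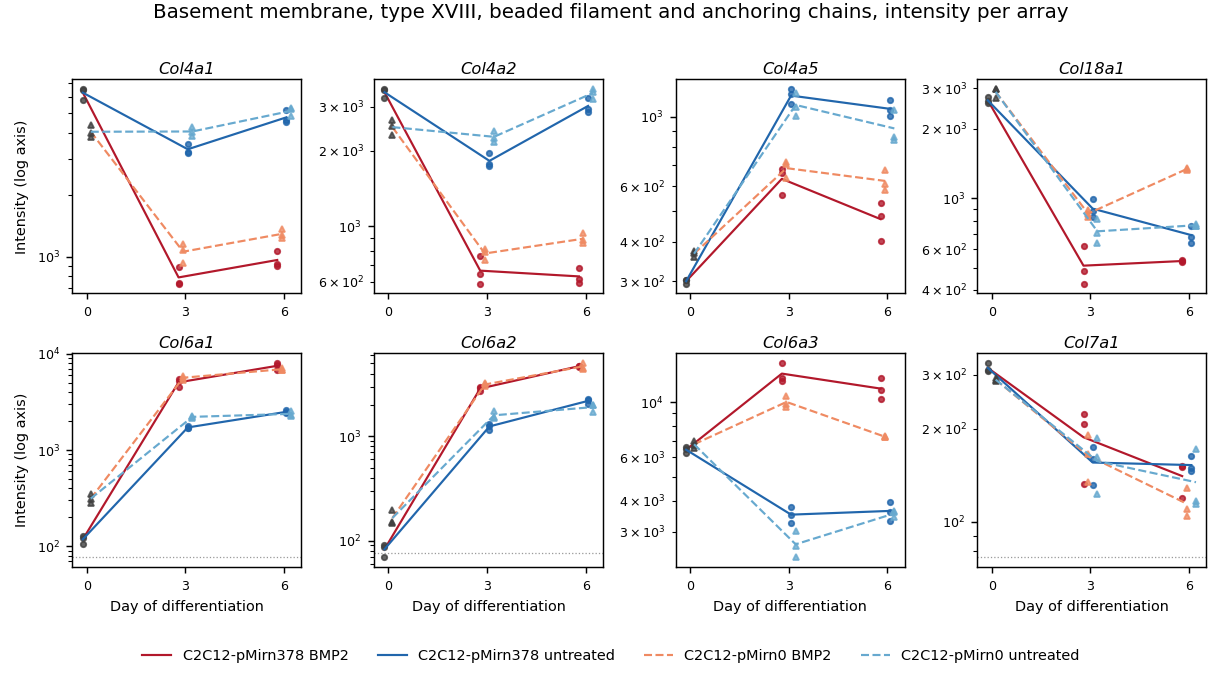
Intensity (log axis) of the type IV genes *Col4a1*, *Col4a2* and *Col4a5*, the multiplexin *Col18a1*, the type VI genes *Col6a1*, *Col6a2* and *Col6a3*, and *Col7a1* on d0, d3 and d6, with points for single arrays, lines for means of 3 arrays, circles and full lines for C2C12-pMirn378, and triangles and dashed lines for C2C12-pMirn0. BMP2 arrays of *Col4a1* and *Col4a2* lie below untreated ones, those of the type VI genes above them, and the d0 arrays (black) of *Col6a1* and *Col6a2* are lower in C2C12-pMirn378.

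The network genes *Col8a1* and *Col8a2*, for the short chains of type VIII collagen known from vessel walls and the cornea, differed in sign. *Col8a1* was not called on d3, with AEVs of 949 ± 168 with BMP2 and 940 ± 70.8 without it in C2C12-pMirn378 cells and 1060 ± 62.6 and 1176 ± 102 in C2C12-pMirn0 cells (SD, n = 3). On d6 it read 591, 691 and 691 with BMP2 and 3208, 3155 and 3141 without it in C2C12-pMirn378 cells. In C2C12-pMirn0 cells the d6 values were 302, 323 and 271 with BMP2 and 3027, 3364 and 3291 without it. The 4 groups were all apart, with log2 ratios of −2.27 ± 0.11 and −3.44 ± 0.11 (SE), that is 4.83-fold and 10.8-fold lower with BMP2, and the second probe set gave −2.23 and −3.95. *Col8a2* was higher in all 4 comparisons, most on d3, when it read 630, 571 and 536 with BMP2 and 40.8, 23.9 and 32.4 without it in C2C12-pMirn378 cells and 1029, 984 and 1056 with BMP2 and 68.4, 69.8 and 78.0 without it in C2C12-pMirn0 cells. On d6 it was 701 ± 60.2 with BMP2 and 279 ± 16.7 without it in C2C12-pMirn378 cells, and 707 ± 24.1 with BMP2 and 343 ± 41.2 without it in C2C12-pMirn0 cells (SD, n = 3), with log2 ratios of 1.33 and 1.05.

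Of the fibril-associated genes, *Col12a1*, for a long flexible bridge between fibrils in tendon, muscle and bone, responded most clearly. On d3 it read 10873, 11945 and 12520 in C2C12-pMirn378 cells with BMP2 and 1190, 1184 and 1256 without it, and in C2C12-pMirn0 cells 12189, 13200 and 12796 with BMP2 and 2969, 3482 and 2962 without it. The BMP2 arrays of the lines overlapped, while the untreated arrays of the lines did not. The log2 ratios were 3.28 ± 0.10 and 2.02 ± 0.10 (SE) on d3 and 1.58 and 0.85 on d6. *Col14a1*, a related chain, was close to the median level, at 131 ± 14.7 with BMP2 and 60.2 ± 9.65 without it on d3 in C2C12-pMirn378 cells (SD, n = 3). It was called higher in 3 of the 4 comparisons, of which 2 depended on single arrays: the d6 call in C2C12-pMirn0 cells (1.02 ± 0.26) was lost without 1 of 4 arrays in turn (C2C12-pMirn0 d6 untreated replicate 1 or any d6 BMP2 replicate), with 0.59 at the lowest, and the d3 call in C2C12-pMirn378 cells (1.13 ± 0.26) without 1 of 3 (C2C12-pMirn378 d3 untreated replicate 1, d3 BMP2 replicate 2 or 3). *Col16a1* was between 241 and 420 in all groups and was not called, with ratios between 0.32 and 0.59.

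*Col19a1*, a chain that mouse embryos make in developing muscle, moved in opposite directions in the lines. On d3 its intensities in C2C12-pMirn0 cells were 218, 161 and 200 with BMP2 and 81.0, 55.7 and 68.2 without it (log2 ratio 1.5 ± 0.20, SE). On d6 it read 111, 139 and 108 with BMP2 and 59.5, 76.4 and 69.0 without it (0.80 ± 0.20, adjusted p = 0.00329), a call lost without 1 of 5 arrays in turn (C2C12-pMirn0 d6 untreated replicate 1 or 3 or any d6 BMP2 replicate). In C2C12-pMirn378 cells it was lower with BMP2 on d6, at 49.0, 39.8 and 69.7 against 116, 130 and 97.4 without it (−1.14 ± 0.20, adjusted p = 9.34e-05), and on d3 the groups overlapped. Its second probe set gave 1.30 and 1.16 in C2C12-pMirn0 cells on d3 and d6 and −1.04 in C2C12-pMirn378 cells on d6, all called. A still dimmer probe set gave −0.060, 0.93 and −1.43 in these comparisons.

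Among the transmembrane chains, *Col25a1*, which mouse muscle needs to be reached by motor axons, was a gene of untreated d6 cultures. It read 7.32, 18 and 40.8 in C2C12-pMirn378 cells with BMP2 on d6 and 351, 379 and 445 without it. The C2C12-pMirn0 arrays read 33.1, 26.7 and 25 with BMP2 and 972, 1062 and 1031 without it. All other groups had AEVs of 77.9 or less. The log2 ratios were −4.48 ± 0.64 and −5.19 ± 0.64 (SE), and −2.96 and −4.35 when values under 50 were set to 50. The second probe set of *Col25a1* was below the median in every group and did not show the change (−1.03 and −0.50, not called). *Col23a1*, another transmembrane chain, was called lower on d6 in C2C12-pMirn0 cells, at 20, 21.8 and 2.27 with BMP2 against 72.7, 97.3 and 73.4 without it. Its log2 ratio was −3.01 ± 0.63, −1.94 without C2C12-pMirn0 d6 BMP2 replicate 3 and −0.68 with values under 50 set to 50. The call was lost on the second probe set (−2.86, adjusted p = 0.0288) and in a fit of the 6 arrays compared. *Col9a1* and *Col22a1* stayed near the median and were not called in any comparison.

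**Figure D4:**
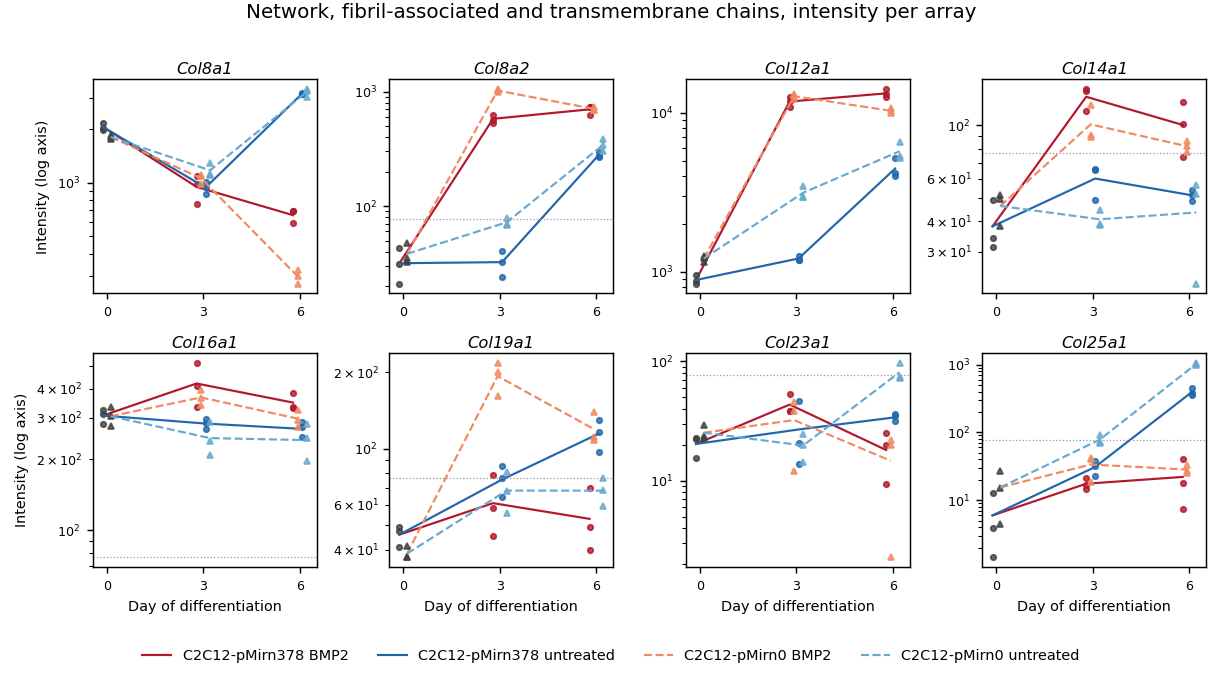
Intensity (log axis) of the network genes *Col8a1* and *Col8a2*, the fibril-associated genes *Col12a1*, *Col14a1*, *Col16a1* and *Col19a1* and the transmembrane genes *Col23a1* and *Col25a1* on d0, d3 and d6, with points for single arrays, lines for means of 3 arrays, circles and full lines for C2C12-pMirn378, and triangles and dashed lines for C2C12-pMirn0. *Col8a1* and *Col25a1* separate by treatment on d6, and *Col19a1* with BMP2 is high in C2C12-pMirn0 alone; the dotted line is the median of all intensities.

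Set against d0, the type VI genes *Col6a1* and *Col6a2* and the type I gene *Col1a1* were among those that rose in C2C12-pMirn0 cells with BMP2 and without it. A gene was called here by the adjusted p of d6 over d0 and by its log2 ratio over d0 averaged over d3 and d6. Both courses use the same 3 d0 arrays of C2C12-pMirn0, so they are not independent. With BMP2, 14 of the 42 genes rose and 6 fell (11.6% and 10.2% of all genes), with a median log2 ratio of 0.59 against −0.0022 over all genes. Without it, 9 rose and 3 fell (11.5% and 11.7% of all genes), with a median of 0.16 against −0.037.

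*Col6a1* had AEVs of 313 ± 34.6, 5646 ± 292 and 6927 ± 256 on d0, d3 and d6 with BMP2 (SD, n = 3), and untreated cells reached 2214 ± 69.3 and 2379 ± 123. The mean log2 ratios of *Col6a1* were 4.33 with BMP2 and 2.88 without it, and those of *Col6a2* were 4.55 and 3.41. *Col6a3*, whose chain joins theirs in the trimer, differed from them. With BMP2 it was 10016 ± 558 on d3 and 7250 ± 36.6 on d6, against 6764 ± 217 on d0, and was not called, and without BMP2 it fell to 2673 ± 324 on d3 and 3559 ± 112 on d6. *Col1a1*, *Col4a5*, *Col8a2*, *Col11a1*, *Col12a1* and *Col19a1* also rose on both courses, with *Col1a1* at mean ratios of 3.52 with BMP2 and 2.61 without it. The call of *Col19a1* in untreated cells (0.81) was lost without any 1 of the d0 arrays or without d6 untreated replicate 2 or 3. *Col25a1* rose in untreated cells alone (4.53). *Col18a1* and *Col7a1* fell on both courses: *Col18a1* had AEVs of 2894 ± 137, 857 ± 30.7 and 1338 ± 17.6 on d0, d3 and d6 with BMP2, and *Col7a1* had 289 ± 2.56, 164 ± 28.2 and 114 ± 13. Called on the BMP2 course alone were *Col1a2*, *Col2a1*, *Col3a1*, *Col5a1* and *Col24a1*, which rose, and *Col4a1*, *Col4a2* and *Col8a1*, which fell. So were the dim genes *Col17a1* and *Col20a1*, which were not called with values under 50 set to 50 (−0.17 and 0.23). *Col3a1* also rose without BMP2, at log2 ratios over d0 of 0.50 and 0.56 on d3 and d6, against 0.63 and 0.81 with it. Its second probe set gave 1.19 and 1.16 without BMP2 and 1.92 on both days with it. *Col4a1* and *Col4a2* stayed close to d0 in untreated C2C12-pMirn0 cells, with mean ratios of 0.17 and 0.16. In untreated C2C12-pMirn378 cells the AEVs of *Col4a1* were 6296, 3335 and 4774 on d0, d3 and d6. Those of *Col4a2* were 3419, 1822 and 3016. The course over d0 was not tested in that line.

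The lines differed in few collagen genes. Each of these calls rests on the spread shared by all 10 groups: fits of only the 6 arrays compared called 0 of all 45101 probe sets in each of the 5 line comparisons, so that no collagen gene was called in them. On d0, C2C12-pMirn378 cells had 1 gene higher and 2 lower than C2C12-pMirn0 cells (0.121% and 0.709% of all genes). *Col6a1* read 105, 121 and 129 in C2C12-pMirn378 cells and 309, 281 and 349 in C2C12-pMirn0 cells, which is −1.40 ± 0.09 on the log2 scale (SE, adjusted p = 1.81e-09). *Col6a2* read 68.9, 87.3 and 91.6 against 146, 152 and 196 in C2C12-pMirn0 cells (−0.99 ± 0.11, adjusted p = 7.29e-06). From d3 on neither gene was called, with log2 ratios between −0.37 and 0.20. *Col4a1* was higher, at 6296 ± 407 in C2C12-pMirn378 cells and 4060 ± 279 in C2C12-pMirn0 cells (SD, n = 3), a log2 ratio of 0.63 ± 0.10 (SE) that fell to 0.59 without C2C12-pMirn0 d0 replicate 2 and was 0.30 on its second probe set, not called.

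In untreated cells, 3 genes were lower in C2C12-pMirn378 on d3 and none was higher (0.297% and 0.418% of all genes). These were *Col1a1*, at 606, 494 and 558 against 1011, 1037 and 1049 in C2C12-pMirn0 cells (−0.91 ± 0.12, SE), *Col12a1*, at 1190, 1184 and 1256 against 2969, 3482 and 2962 (−1.37 ± 0.10), and *Col8a2*, at 40.8, 23.9 and 32.4 against 68.4, 69.8 and 78.0 (−1.19 ± 0.20). On second probe sets *Col1a1* gave −0.96 (adjusted p = 0.174) and *Col12a1* −0.89 (adjusted p = 0.00175, called). The call of *Col8a2* was lost when any 1 of the 6 arrays other than C2C12-pMirn378 replicate 1 was left out, and was −0.53 with values under 50 set to 50. On d6 limma called none of the 42 genes in untreated cells (0.165% of all genes were higher and 0.0824% lower), with 6 at an unadjusted p under 0.05, and 5 in the fit of the 6 arrays alone. How many of all genes had an unadjusted p under 0.05 was not counted. With values under 50 set to 50, 3 genes were called lower in C2C12-pMirn378 cells: *Col25a1* (−1.39, with AEVs of 392 ± 48.6 against 1022 ± 46 in C2C12-pMirn0 cells), *Col11a1* (−1.81) and *Col23a1* (−0.68). The share of all genes called with this floor was not counted. The floor removes the spread between arrays below 50, and the limma adjusted p of *Col25a1* went from 0.441 to 7.27e-11 at the same ratio.

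With BMP2, 1 gene was higher in C2C12-pMirn378 cells on d3 and 2 were lower (2.49% and 1.87% of all genes), and on d6, 3 were higher and 3 lower (1.54% and 1.32%). *Col1a1* was higher on both days, with log2 ratios of 0.78 ± 0.12 and 0.94 ± 0.12 (SE, adjusted p = 8.99e-05 and 1.44e-05). *Col18a1* was lower on both, at 619, 484 and 425 against 890, 851 and 830 in C2C12-pMirn0 cells on d3, and at 538, 529 and 534 against 1338, 1321 and 1356 on d6. *Col19a1* was lower on both, at 79.0, 58.6 and 45.3 against 218, 161 and 200 in C2C12-pMirn0 cells on d3, and at 49.0, 39.8 and 69.7 against 111, 139 and 108 on d6. For each of these genes no array of one line reached into the other line on either day. On d6, *Col8a1* was also higher, at 591, 691 and 691 against 302, 323 and 271 (1.14 ± 0.11), as was *Col6a3*, at 11340 ± 1086 against 7250 ± 36.6 (SD, n = 3; 0.64 ± 0.09 on the log2 scale, and 0.57 without C2C12-pMirn378 d6 BMP2 replicate 1). *Col5a3* was lower, at 619 ± 24.2 against 967 ± 40.9 (−0.64 ± 0.08). The second probe set gave like ratios for *Col1a1* (0.68 and 0.75), which were not called, and for *Col8a1* (1.59), which was. For *Col18a1* it gave −0.20 on d3, not called, and −0.84 on d6, called. For *Col19a1* it gave −1.13 on d3 (adjusted p = 0.00795), not called, and −1.32 on d6, called.

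Whether the BMP2 response differed between the lines was tested as the interaction of line and BMP2, the log2 ratio in C2C12-pMirn378 minus that in C2C12-pMirn0 cells. On d3, 2 genes had a larger ratio in C2C12-pMirn378 cells and 3 a smaller one (1.15% and 0.874% of all genes). On d6, 3 were larger and 2 smaller (1.03% and 1.02%). *Col1a1* differed on both days (1.68 ± 0.17 and 1.24 ± 0.17, SE), as did *Col12a1* (1.26 ± 0.14 and 0.73 ± 0.14), *Col18a1* (−1.10 ± 0.15 and −1.18 ± 0.15) and *Col19a1* (−1.84 ± 0.29 and −1.95 ± 0.29). For *Col12a1* the d3 difference came from untreated arrays, which were lower in C2C12-pMirn378, while its BMP2 arrays overlapped between the lines. Its d6 call was lost when any 1 of the 12 arrays was left out (0.62 at the lowest), other than C2C12-pMirn0 untreated replicate 1, C2C12-pMirn378 untreated replicate 3 or C2C12-pMirn378 BMP2 replicate 2. *Col8a1* differed on d6 (1.16 ± 0.15) and *Col5a3* on d3 (−0.67 ± 0.11). *Col4a1*, *Col4a2*, *Col6a1*, *Col6a2* and *Col6a3* were not called, with interaction values between −0.33 and 0.61. In fits of only the 12 arrays compared, *Col1a1* and *Col12a1* on d3 and *Col18a1* on d6 were called, and the other 7 values were not. On second probe sets *Col1a1*, *Col8a1*, *Col12a1*, *Col18a1* and *Col19a1* had the same signs, and *Col8a1* (1.72) and the d6 value of *Col19a1* (−2.20, adjusted p = 0.00147) were called. Not called there were *Col1a1* (1.64 and 1.03 on d3 and d6, adjusted p = 0.0291 and 0.224), *Col12a1* (0.78 and 0.66), *Col18a1* (−0.28 and −0.68) and the d3 value of *Col19a1* (−1.31, adjusted p = 0.0663), while *Col5a3*, dim on its second probe set, gave 0.038.

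**Figure D5:**
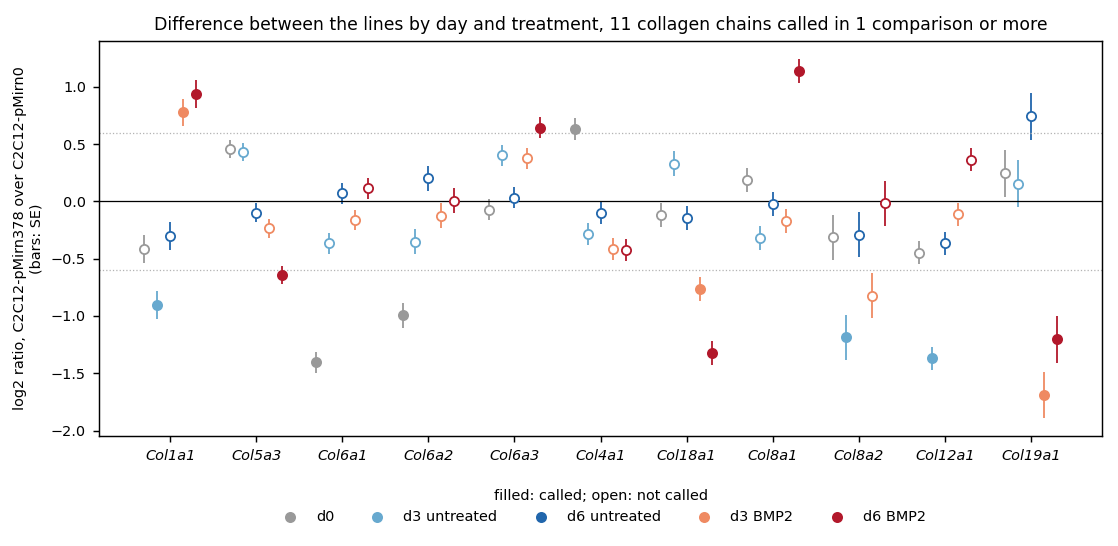
Log2 ratio of C2C12-pMirn378 over C2C12-pMirn0 for the 11 collagen genes called in 1 or more of the line comparisons, on d0, d3 untreated, d6 untreated, d3 with BMP2 and d6 with BMP2. Bars are standard errors, filled symbols are called and dotted lines mark 0.6 in either direction: *Col1a1* lies below 0 in untreated cells and above it with BMP2, and *Col6a1* and *Col6a2* are called on d0 alone.

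Collagen chains are hydroxylated, trimmed and cross-linked on their way into the matrix, and the genes of these steps were followed through a list of 32 genes, of which 28 were on the array under a single symbol. On d3 with BMP2, 15 of the 28 were higher and 1 lower in C2C12-pMirn378 cells, and 12 were higher and 1 lower in C2C12-pMirn0 cells (of all genes, 13.3% and 9.84%, and 11.2% and 8.48%). On d6 the counts were 11 and 1 in C2C12-pMirn378 cells and 8 and 1 in C2C12-pMirn0 cells (10.8% and 11.1%, and 11% and 10.6%). The median log2 ratios of the 28 genes were 0.91 and 0.64 on d3 and 0.55 and 0.42 on d6, and those of all genes −0.031 and 0.055 on d3 and −0.030 and 0.080 on d6, in the same order of lines. *Pcolce2*, which speeds removal of the C-terminal propeptide, had d3 AEVs of 8699 with BMP2 and 753 without it in C2C12-pMirn378 cells (log2 ratio 3.53 ± 0.06, SE) and a ratio of 3.61 ± 0.06 in C2C12-pMirn0 cells. *P4ha2*, a prolyl 4-hydroxylase subunit, gave 2.01 and 1.55 on d3, *Crtap*, a partner of prolyl 3-hydroxylase, gave 1.75 and 1.48, and *Lox*, which starts cross-linking, gave 1.99 and 1.58 in C2C12-pMirn378 and C2C12-pMirn0 cells. *Loxl1*, a lysyl oxidase known from elastic fibers, was the member that fell in all 4 comparisons, with ratios between −1.28 and −0.65.

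Under BMP2, *Bmp1*, the protease that removes the C-terminal propeptide, and *P3h4*, a partner of lysyl hydroxylase, were higher in C2C12-pMirn378 cells on both days, with log2 ratios over C2C12-pMirn0 cells of 0.72 and 0.75 for *Bmp1* and 0.67 and 0.67 for *P3h4*. *Fkbp14*, a prolyl isomerase, was higher on d3 (0.91), and *Pcolce2* and *Lox* on d6 (0.80 and 0.76). Of the 28 genes, 3 were thus higher on d3 and none lower (2.49% and 1.87% of all genes). On d6, 4 were higher and none lower (1.54% and 1.32%). Lower calls were so rare over all genes that their absence among 28 says little. In the course of C2C12-pMirn0 cells with BMP2, 9 members rose and none fell (11.6% and 10.2% of all genes). Without BMP2, 3 rose and 3 fell, which is 10.7% each, close to the share of all genes (11.5% and 11.7%). Among them *Pcolce2* fell by 2.96 on the log2 scale and *Loxl1* rose by 1.17.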

How the data were processed

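Per the labels and the methods, RNA of triplicate experiments was hybridized to Affymetrix Mouse Genome 430 2.0 arrays, and the methods name R 2.4.1 and RMA with quantile normalization. The authors deposited intensities on a linear scale, without detection calls. These reach down to 0.0561, and array medians differ (68.0 to 82.7), which RMA with quantile normalization would not give, so that how the deposited scale was reached is not given in the sources used here. Precision is limited by the 3 arrays of a group. The p-values measure only the spread between replicate arrays, pooled over all 10 groups. The log2 of each value was used, with nothing added. Probe sets were named through the platform's gene table, in which 34958 had 1 symbol, 932 several and 9211 none. All 42 collagen genes matched a RefSeq gene. Means of the 10 groups were fitted over all 45101 probe sets with limma 3.58.1 in R 4.3.3 (20 residual and 1.2 prior degrees of freedom), with Benjamini-Hochberg adjustment over all of them. Percentages of all genes are over 1 probe set for each of 18194 genes. Several comparisons share groups of arrays. Genes were named with values when called and at or above the median intensity in a group. Of the maturation list, these were up to 4 called genes with the smallest adjusted p in a comparison and those called against the majority. *Col9a1*, *Col16a1*, *Col22a1* and *Col27a1* and, of the list, *Bmp1*, *P3h4* and *Fkbp14* were also named after their values were seen. The members, classes and lists were chosen with earlier results of these data known. The fit was checked on simulated data with the same spread in all groups, so this check does not cover groups that differ in spread. The alternatives were a block on replicate number, a dim probe set filter, an offset of 16, scaling to array medians, fitting only the groups compared, eBayes with trend and robust, the second brightest probe set, leaving out each array in turn and, chosen after seeing the data, setting values under 50 to 50. Promoter windows were read from a RefSeq table.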

Additional observations from a re-analysis of the deposited data

Results flagged for a closer look

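The BMP2 response differed between the lines, by the interaction term of the limma fit, for 5 collagen genes on d3 and 5 on d6. Of all genes, 1.15% had a larger and 0.874% a smaller ratio in C2C12-pMirn378 cells on d3, and 1.03% and 1.02% on d6. Fits of only the 12 arrays compared called *Col1a1* and *Col12a1* on d3 and *Col18a1* on d6 alone. On second probe sets *Col1a1* was not called and *Col5a3* changed sign. The d6 call of *Col12a1* depended on single arrays. On d3 the log2 ratio of BMP2 over untreated in C2C12-pMirn378 cells minus that in C2C12-pMirn0 cells was 1.68 for *Col1a1*, 1.26 for *Col12a1*, −0.67 for *Col5a3*, −1.10 for *Col18a1* and −1.84 for *Col19a1*. On d6 it was 1.24 for *Col1a1*, 0.73 for *Col12a1*, 1.16 for *Col8a1*, −1.18 for *Col18a1* and −1.95 for *Col19a1*. Of the maturation list, the difference on d3 was 0.65 for *P3h4*, 0.94 for *Fkbp14* and 0.95 for *Bmp1*, and on d6 it was 0.75 for *P4ha2*, 0.68 for *P3h4*, 0.84 for *Bmp1* and 0.73 for *Pcolce2*. For this list no results of the alternative settings are given. The d3 and d6 values of a gene come from different arrays. With 3 arrays in a group, single arrays were not tested as outliers.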

How the results depend on the processing

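Of 126 calls of single collagen genes, 4 were of the dim genes *Col17a1* and *Col20a1*, and 0 of these held with values under 50 set to 50. Of the other 122, 120 held with that floor, 120 with eBayes trend and robust, 119 after scaling to array medians, 122 with the offset of 16 and 122 with the dim filter, which removes the dim genes. No label says that replicate numbers pair the arrays. Correlations of same-numbered arrays ran from −0.15 to 0.19 (median 0.037, against −0.016 for different numbers), and 21 of 30 arrays, not all, were closest to their own number, a hint of a weak shared effect. With the replicate block 122 of 122 calls held. Leaving out 1 array in turn gave 882 checks of the 122 calls, and the call held in 840. By call, 12 of the 122 were lost in 1 check or more. The count of genes higher in C2C12-pMirn378 cells on d0 was 0 to 1 over these fits. Fitted on only the groups compared, 81 of the 122 calls held. Such fits of 6 arrays called 0 of all 45101 probe sets in each of the 5 line comparisons, so that the counts were 0 higher and 0 lower on d0, 0 lower on d3 untreated, and 0 higher and 0 lower on d3 and on d6 with BMP2. In them BMP2 gave 7 genes higher on d6 in C2C12-pMirn0 cells and 2 lower on d3 in C2C12-pMirn378 cells, and the interaction 0 smaller on d3 and, on d6, 0 larger and 1 smaller. On the second brightest probe set 60 of 85 calls held and 4 changed sign: *Col5a3* with BMP2 on d3 in C2C12-pMirn378 cells (0.73), between the lines on d6 with BMP2 (0.61) and in the d3 interaction (0.038), and *Col25a1* in untreated differentiation (−0.49), each on a probe set below the median. For the counts in this setting, genes with only 1 probe set kept that probe set. With BMP2, 3 genes were lower on d6 in C2C12-pMirn0 cells and 3 on d3 in C2C12-pMirn378 cells. Between the lines, 0 were higher on d0, and 0 higher and 0 lower on d3 with BMP2. In the interaction 1 was larger and 0 smaller on d3, and 1 larger and 1 smaller on d6. With the offset of 16 the line comparisons gave 1 lower on d6 untreated, 2 higher on d3 with BMP2 and 5 higher on d6 with BMP2. With values under 50 set to 50 they gave 3 lower on d6 untreated and 2 higher and 4 lower on d3 with BMP2, and the interaction 4 larger on d3 and 8 on d6. Shares of all genes were not counted with the offset or the floor. The causes of these changes were not tested.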
